A study of Mus musculus with 2 samples.

Results

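The interleukin-1 (IL-1) and inflammasome genes were 9 genes chosen by name, namely the ligands Il1a, Il1b and Il18, the antagonist Il1rn, the decoy receptor Il1r2, the receptor subunit Il1rap, the sensor Nlrp3, the protease Casp1 and the pore protein Gsdmd. All 9 were matched by Ensembl identifier, out of 32285 genes counted. They were followed in alveolar macrophages (AMs), the resident macrophages of the air sacs, sorted from C57BL/6 mice labelled as 10 weeks old. The 2 droplet libraries hold AMs of vehicle-control mice and AMs of mice whose left lung had been implanted with Lewis lung carcinoma (LLC) cells carrying tdTomato, with 1 library per condition. Lungs were digested with enzymes at warm temperature, and the study defines lung AMs as autofluorescent CD45+ cells with Siglec-F, F4/80 and CD11c and without CD11b. Control and tumor mice were bred separately, and how many mice each library pools was not given in the sources used here.

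IL-1α and IL-1β signal through the IL-1 receptor, whose second subunit is the IL-1 receptor accessory protein. The IL-1 receptor antagonist occupies that receptor without signalling, and the type 2 receptor captures the ligands without signalling. IL-1β and IL-18 are made as inactive precursors. NLRP3 assembles an inflammasome with the adaptor ASC, which activates caspase-1, and caspase-1 cleaves both precursors as well as gasdermin D, whose fragment forms pores in the membrane. Il1b and Nlrp3 transcripts are known to be induced by NF-κB, a step called priming. Transcript counts measure neither cleavage nor release of these proteins.

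Barcodes with at least 500 genes and at most 10% mitochondrial UMIs (unique molecular identifiers, each standing for 1 captured transcript) were kept. This left 6185 of 8485 control barcodes with 64850143 UMIs and 7666 of 9175 tumor barcodes with 68801889 UMIs, at medians of 10370 and 8264 UMIs. The libraries shared 17 of the kept barcode sequences. All 13 AM markers were present in both, with summed levels of 21744 and 18758 CPM, that is, UMIs of a gene scaled to a common library total. Chil3 made up 11657 and 10519 CPM of these sums. Of the 13 markers 1, Marco, was at least 2-fold lower in tumor (585 and 207 CPM, 2.83-fold) and 0 at least 2-fold higher. Over all genes with at least 50 UMIs, 4.86% were at least 2-fold lower and 5.01% at least 2-fold higher. In all, 10 of the 13 AM markers were lower in tumor and 3 higher. Besides Marco, Ear1 was 1.80-fold, Car4 1.71-fold, Krt79 1.62-fold, Ear2 1.45-fold and Siglecf 1.34-fold lower. Cd9, Mrc1, Chil3 and Pparg were lower by less. The 3 higher ones were Plet1 at 1347 and 1559 CPM, Fabp4 at 349 and 372 CPM and Itgax at 362 and 384 CPM. Of the 10 neutrophil markers, 4 in control and 6 in tumor had at most 3 UMIs, including Ly6g at 2 and 0 UMIs, while S100a8, Mmp8, Cxcr2 and Csf3r were each found in 5.92% to 42.0% of barcodes of a library. Intervals are exact 95% intervals and cover counting error only. Where a count was 0, the limit given is that of 3 counts, which is below the upper end of an exact interval. With 1 library per condition no test was possible, cells are not replicates, and batch and condition cannot be told apart.

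The 5′ flanks of the 4 members that were higher in barcodes with an Il1b UMI in both libraries (described further on, with the settings at which a call was lost), Il1b itself included, are shown here from RefSeq (GRCm38.p6), each as the 250 bases before a transcript start on the gene's own strand. Capitals mark matches to the AP-1 motif TGANTCA, the PU.1 core GAGGAA, the C/EBP motif TTGCNNAA and the NF-κB consensus, searched on both strands. The windows are chr2:129371140-129371389 (minus strand) for Il1b, chr2:129309973-129310222 (minus strand) for Il1a, chr2:24336610-24336859 (plus strand) for the most upstream of 3 Il1rn starts and chr11:59541319-59541568 (plus strand) for the more upstream of 2 Nlrp3 starts.
Il1b: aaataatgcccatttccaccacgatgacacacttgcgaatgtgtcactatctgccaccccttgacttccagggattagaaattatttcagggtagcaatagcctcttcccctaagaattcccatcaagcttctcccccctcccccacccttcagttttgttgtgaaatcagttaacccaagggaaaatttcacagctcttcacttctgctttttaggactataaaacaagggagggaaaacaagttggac
Il1a: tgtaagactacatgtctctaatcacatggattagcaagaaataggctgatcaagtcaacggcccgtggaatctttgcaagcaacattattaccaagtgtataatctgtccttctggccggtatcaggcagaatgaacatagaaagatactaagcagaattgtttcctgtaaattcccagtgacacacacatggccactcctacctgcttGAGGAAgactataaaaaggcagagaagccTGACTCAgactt
Il1rn: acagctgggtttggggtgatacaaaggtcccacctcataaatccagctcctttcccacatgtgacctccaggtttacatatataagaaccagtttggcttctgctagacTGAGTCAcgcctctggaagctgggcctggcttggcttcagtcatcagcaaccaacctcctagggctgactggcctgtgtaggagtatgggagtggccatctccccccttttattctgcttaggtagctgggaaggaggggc
Nlrp3: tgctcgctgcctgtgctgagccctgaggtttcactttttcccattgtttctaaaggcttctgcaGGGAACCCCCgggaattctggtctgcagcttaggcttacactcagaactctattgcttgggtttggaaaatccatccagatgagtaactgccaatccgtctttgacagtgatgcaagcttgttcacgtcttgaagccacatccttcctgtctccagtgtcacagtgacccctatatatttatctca
An AP-1 match began 12 bases before the Il1a start and 141 bases before this Il1rn start. The Nlrp3 window held an NF-κB consensus match beginning 186 bases before its start, and the Il1a window held a PU.1 core 41 bases before its start. The second Nlrp3 window, not printed, held 3 PU.1 cores. The Il1b window held no match to these 4 motifs. Windows were found for 8 of the 9 members, all but Gsdmd. Among 32851 mouse windows of the same length, 6.75% held the AP-1 motif, 5.001% the NF-κB consensus, 23.3% the PU.1 core and 9.56% the C/EBP motif. A match is a description of the letters and not evidence of binding.

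All 9 genes are protein coding in the mm10 annotation used here (GENCODE). Il1b lies on chromosome 2 from 129364570 to 129371139 on the minus strand with 7 exons, and Il1a lies close by on the same chromosome from 129299610 to 129309972, also with 7 exons. Il1b overlaps the antisense transcript Il1bos, which had 12 UMIs over both libraries. Il1a overlaps Gm14023 on the opposite strand, with 39 UMIs. Il18, on chromosome 9 from 50554827 to 50581840, overlaps Bco2 and Tex12 on the opposite strand, with 149 and 4 UMIs. The other members lie apart. Il1rn is on chromosome 2 from 24336853 to 24351494, Il1r2 on chromosome 1 from 40074079 to 40125231, Il1rap on chromosome 16 from 26581704 to 26730117, Nlrp3 on chromosome 11 from 59541568 to 59566956, Casp1 on chromosome 9 from 5298517 to 5307265 and Gsdmd on chromosome 15 from 75862327 to 75867408, all on the plus strand. Il1r2 and Il1rap each overlap an opposite-strand gene with 2 UMIs. Il1r2 also overlaps Gm37347 on the same strand, which was not analysed here, so its share in the Il1r2 count is unknown. Of the others, Il1rn, Nlrp3, Casp1 and Gsdmd overlap no annotated gene.

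Il1b was the member with the largest difference between the libraries. It had 135.5 CPM in control (8788 UMIs, interval 132.7 to 138.4) and 687 CPM in tumor (47282 UMIs, interval 681 to 693). The tumor level was 5.07-fold higher (4.96 to 5.19), a log2 ratio of 2.34, which put Il1b at rank 244 of the 12267 genes with at least 50 UMIs over both libraries. By summed UMIs it moved from rank 1163 to rank 207 among all genes of its library. Il1a, the other IL-1 receptor agonist, was at 67.7 CPM in control (65.7 to 69.7) and 75.0 CPM in tumor (73.0 to 77.1), a log2 ratio of 0.15 (0.09 to 0.21). The 2 agonist transcripts of the same receptor thus differed by unequal amounts between the libraries.

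Il18, whose product acts on a separate receptor and drives interferon-γ in lymphocytes, was less abundant in AMs of tumor-bearing mice. Control AMs had 462 CPM of Il18 (457 to 468) and tumor AMs 262 CPM (259 to 266), 1.76-fold less, with a log2 ratio of −0.82. Il1rn, the antagonist, was at 149.6 CPM in control (146.7 to 152.6) and 189.6 CPM in tumor (186.4 to 192.9), with a log2 ratio of 0.34 (0.30 to 0.38). The antagonist was higher in the tumor library by less than Il1b was.

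Il1r2, the decoy, was close to absent. Control barcodes held 30 UMIs (0.463 CPM, 0.312 to 0.660) and tumor barcodes 78 UMIs (1.13 CPM, 0.896 to 1.41), a 2.45-fold difference (1.59 to 3.87). The control UMIs lay in 13 barcodes, 1 of which held 9 of them together with 370 of the library's 374 S100a9 and Retnlg UMIs, both neutrophil genes. Without that barcode the control level was 0.324 CPM. In tumor the UMIs lay in 66 barcodes, 55 of which had 1 UMI each, and the whole tumor library held 3 S100a9 and Retnlg UMIs. As a mean of the CPM of each barcode, which weights barcodes equally, the log2 ratio was 0.62 instead of 1.29, which is below 2-fold. Il1rap, the signalling subunit, was at 19.6 CPM in control (18.5 to 20.7) and 17.8 CPM in tumor (16.8 to 18.8), with a log2 ratio of −0.14 (−0.25 to −0.02).

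The inflammasome members differed little between the libraries. Nlrp3 was at 181.8 CPM in control (178.5 to 185.1) and 193.8 CPM in tumor (190.5 to 197.1), a log2 ratio of 0.09 (0.06 to 0.13). Casp1 was at 45.5 CPM (43.9 to 47.2) and 44.8 CPM (43.3 to 46.4), giving a log2 ratio of −0.02 whose interval of −0.10 to 0.05 held 0. Its sign turned when ratios were divided by the median ratio of all genes tested, which was −0.06 on the log2 scale. Gsdmd was at 25.5 CPM (24.3 to 26.8) and 27.3 CPM (26.0 to 28.5), giving a log2 ratio of 0.09 whose interval of −0.0014 to 0.19 also held 0. The log2 ratios of the sensor, protease and pore transcripts thus lay between −0.02 and 0.09, beside 2.34 for Il1b.

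**Figure D1:**
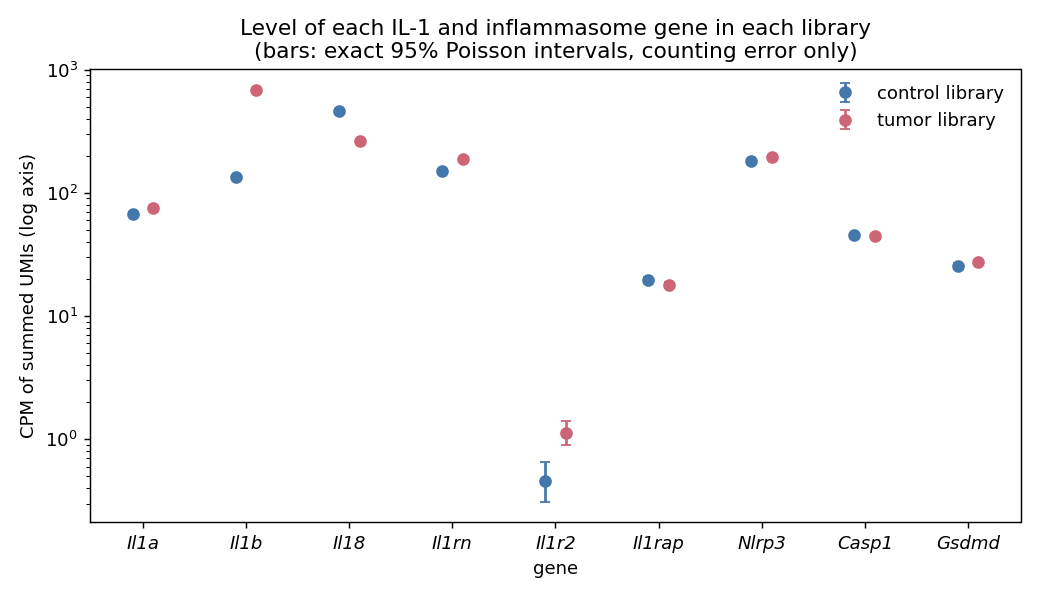
Level of each member (x axis) as CPM of summed UMIs (y axis, log) in the control and tumor libraries, 1 library each, with exact 95% Poisson intervals that cover counting error only. Il1b stands at 135.5 CPM in control and 687 CPM in tumor, Il18 falls from 462 to 262 CPM, and Il1r2 lies lowest, at 0.463 and 1.13 CPM.

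In control the members ordered as Il18, Nlrp3, Il1rn, Il1b, Il1a, Casp1, Gsdmd, Il1rap and Il1r2, and no neighbouring intervals overlapped. In tumor Il1b came first and Il18 second, followed by Nlrp3 and Il1rn, whose intervals overlapped, and the other members kept their control order. These are CPM levels of 3′ transcript ends, which are counted once per molecule whatever the transcript length, although capture may differ between genes. Of the 9 members, 2 (Il1b and Il1r2) were at least 2-fold higher in tumor and 0 at least 2-fold lower. Over all 12267 genes with at least 50 UMIs, 5.01% were at least 2-fold higher and 4.86% at least 2-fold lower. The median log2 ratio was 0.09 over the members and −0.06 over all genes.

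The balance of agonist to antagonist transcripts was then taken within each library, where depth cancels. In control, Il1a and Il1b together had 13176 UMIs against 9733 of Il1rn and Il1r2, a ratio of 1.35 (1.32 to 1.39). In tumor they had 52441 UMIs against 13123, a ratio of 3.996 (3.92 to 4.07). The tumor balance was 2.95 times that of control. Since Il1r2 gave only 30 and 78 of these UMIs, the denominator was nearly all Il1rn.

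Split by ligand, the shift came with Il1b. Il1b over Il1rn was 0.906 in control (0.880 to 0.932) and 3.62 in tumor (3.55 to 3.70), so Il1b had fewer UMIs than its antagonist in control and more in tumor. Il1a over Il1rn was 0.452 in control (0.436 to 0.469) and 0.395 in tumor (0.383 to 0.408), lower in tumor. Il1b over Il1a was 2.003 in control and 9.17 in tumor. For the IL-18 arm the pattern was of the opposite direction, with Il18 over Il18bp, the soluble IL-18 binding protein, at 142 in control (124 to 163) and 47.4 in tumor (42.8 to 52.6).

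**Figure D2:**
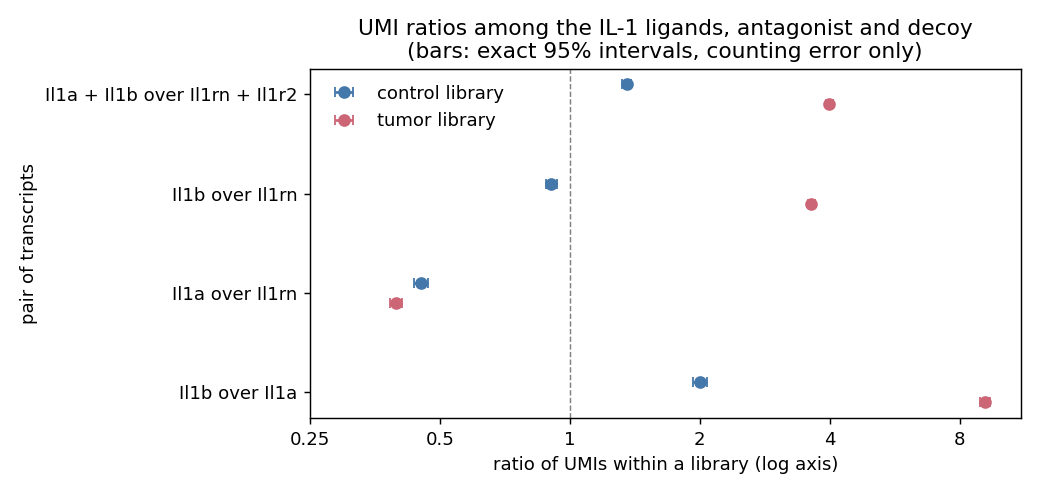
Ratio of UMIs between IL-1 transcripts within each library (x axis, log), 1 row per pair, with exact 95% intervals that cover counting error only and a dashed line at 1. Il1b over Il1rn lies below 1 in control (0.906) and above it in tumor (3.62), whereas Il1a over Il1rn stays below 1 in both.

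Whether the higher Il1b level came with more barcodes carrying it or more UMIs in each was examined after each barcode had been thinned to 3700 UMIs, since shares depend on depth. This left 5603 control and 6972 tumor barcodes, with 582 and 694 shallower ones left out. An Il1b UMI was found in 20.2% of control barcodes (19.2 to 21.3) and 50.2% of tumor barcodes (49.0 to 51.4), a difference of 29.98 percentage points (28.4 to 31.6). Without thinning the shares were 32.9% and 59.6%. Both numbers differed, since carriers held a mean of 2.38 Il1b UMIs in control and 5.07 in tumor, with medians of 1 and 3. Barcodes with at least 3 markers of lymphocytes, fibroblasts or endothelial cells (not counting markers seen in over 5% of barcodes), types that should carry little Il1b, gave the background. None of 17 such control barcodes had an Il1b UMI, which at 3 counts allows a share of up to 17.6%, and 1 of 19 in tumor did (5.26%, 0.133 to 26.0), at unthinned medians of 4155 and 11002 UMIs.

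The distribution of Il1b over barcodes was long-tailed in both libraries. In control, 630 thinned barcodes had 1 Il1b UMI, 377 had 2 to 4, 93 had 5 to 9 and 32 (0.571%) had 10 or more. In tumor the same classes held 987, 1196, 800 and 516 barcodes, the last being 7.40% of barcodes. Barcodes with 10 or more Il1b UMIs held 19.7% of the Il1b UMIs in control and 45.9% in tumor. The highest single barcodes were alike before thinning, with 132 and 134 Il1b UMIs. Barcodes of very high Il1b thus occurred in control too, and the tumor library had more of them. The 1% of barcodes with the most Il1b held 27.6% of its UMIs in control and 12.5% in tumor, and without them the log2 ratio between the libraries was 2.62. Il18 was the most evenly spread member, with 3.71% of its UMIs in its top 1% of barcodes in control and 5.45% in tumor. Il1a had 16.0% and 16.9% there, below Il1b in control and above it in tumor. All Il1r2 UMIs lay in so few barcodes that this share was 100%.

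**Figure D3:**
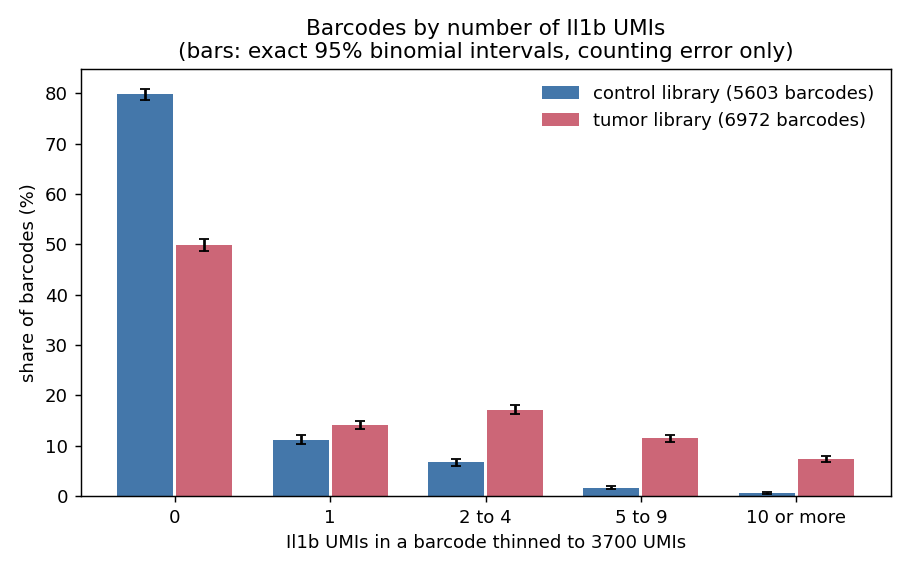
Share of thinned barcodes (y axis, %) by number of Il1b UMIs in the barcode (x axis) for 5603 control and 6972 tumor barcodes, with exact 95% binomial intervals that cover counting error only. The class with 10 or more UMIs holds 0.571% of control and 7.40% of tumor barcodes.

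The shares of barcodes with the other members were also taken at equal depth. Il18 was found in 78.1% of control and 55.95% of tumor barcodes, 22.1 percentage points fewer in tumor. Il1rn was found in 39.3% and 42.6%, Nlrp3 in 44.7% and 44.1%, Il1a in 18.4% and 19.6%, Casp1 in 15.2% and 14.1%, Gsdmd in 8.64% and 9.95% and Il1rap in 6.96% and 6.11%. For Il1a, Nlrp3, Casp1 and Il1rap the interval of the difference held 0, and for Nlrp3 the share was not higher in tumor although the level was. Without thinning, the shares of Il1a (37.5% and 35.0%), Il1rn (65.5% and 63.9%) and Gsdmd (22.7% and 20.8%) were lower in tumor. When thinned, these shares were higher in tumor.

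Barcode by barcode, the balance of Il1b and Il1rn differed as well. More Il1rn than Il1b UMIs were found in 32.7% of control barcodes (31.4 to 33.9) and 22.5% of tumor barcodes (21.5 to 23.5). More Il1b than Il1rn were found in 15.05% of control (14.1 to 16.0) and 42.8% of tumor barcodes (41.6 to 43.96). Both transcripts were found together in 8.25% of control and 22.7% of tumor barcodes, and neither in 48.7% and 29.9%. A barcode in the files is not always 1 cell, because doublets were not removed.

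Which other members went with Il1b was described by comparing thinned barcodes with an Il1b UMI (carriers, 1132 control and 3499 tumor) with the rest (4471 and 3473). Median depth before thinning was alike, at 11350 and 10708 UMIs for control carriers and the rest and 8751 and 8747 in tumor. Of the control carriers 630 and of the tumor carriers 987 had a single Il1b UMI, so the class is a range and not a cell type. Of the 7 other members with at least 200 thinned UMIs in each library, 3 (Il1a, Nlrp3 and Il1rn) had a ratio whose interval lay above 1 in both libraries and 0 below 1 in both. Over the 7409 such genes, 3.48% were above 1 in both and 3.19% below 1 in both. Il1r2, with fewer UMIs, was not in this comparison.

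Il1a went with Il1b most closely of the members. In control it was at 115 CPM in carriers and 52.5 CPM in the rest, a log2 ratio of 1.13 (0.97 to 1.29), and in tumor at 95.5 and 50.8 CPM, which gave a log2 ratio of 0.91 (0.77 to 1.05). Barcodes without Il1b thus had nearly the same Il1a level in both libraries. Nlrp3 was at 224 and 170 CPM in control, which gave a log2 ratio of 0.40 (0.29 to 0.50), and at 239.8 and 170.7 CPM in tumor, which gave a log2 ratio of 0.49 (0.41 to 0.57). With barcodes thinned to 2000 UMIs the control value for Nlrp3 was 0.02 (−0.16 to 0.19), so that call was lost there. Il1rn was at 165 and 147 CPM in control, which gave a log2 ratio of 0.17 (0.04 to 0.29), and at 213 and 164 CPM in tumor, which gave a log2 ratio of 0.38 (0.30 to 0.47). At 5000 UMIs the control value for Il1rn was 0.05 (−0.06 to 0.15), so the control call for Il1rn was lost as well.

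Casp1, Gsdmd and Il1rap had intervals that held a ratio of 1 in both libraries. Casp1, the protease, had log2 ratios of carriers over the rest of −0.05 in control and −0.15 in tumor. Gsdmd, the pore, had 0.16 and −0.08, and Il1rap 0.25 and −0.08. Il18 was lower in tumor carriers, at 245 against 294 CPM, a log2 ratio of −0.26 (−0.33 to −0.19), whereas in control the levels were 444 and 463 CPM and the interval held 0. In tumor, barcodes with Il1b thus had less Il18, the other cytokine precursor cleaved by caspase-1.

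Grouping barcodes by their number of Il1b UMIs gave a graded picture. In control, Il1a was at 52.5 CPM in barcodes with no Il1b UMI, 72.9 with 1, 107 with 2 to 4, 291 with 5 to 9 and 524 with 10 or more (401 to 671). In tumor the same classes had 50.8, 57.8, 78.4, 108 and 189 CPM (170 to 209). At 10 or more Il1b UMIs, Il1a was therefore lower in tumor than in control, with intervals that did not overlap. Nlrp3 went from 170 to 498 CPM in control and from 171 to 348 CPM in tumor across these classes. Il1rn went from 147 to 211 CPM in control, where the last interval was 137 to 312, and from 164 to 325 CPM in tumor. Il18 went the other way, from 463 to 313 CPM in control and from 294 to 192 CPM in tumor. Casp1 stayed between 40.1 and 47.2 CPM in control and between 37.96 and 44.4 CPM in tumor. Gsdmd had 0 UMIs in the 32 control barcodes with the most Il1b, which at 3 counts allows up to 25.3 CPM, and 28.3 CPM in the 516 tumor ones.

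**Figure D4:**
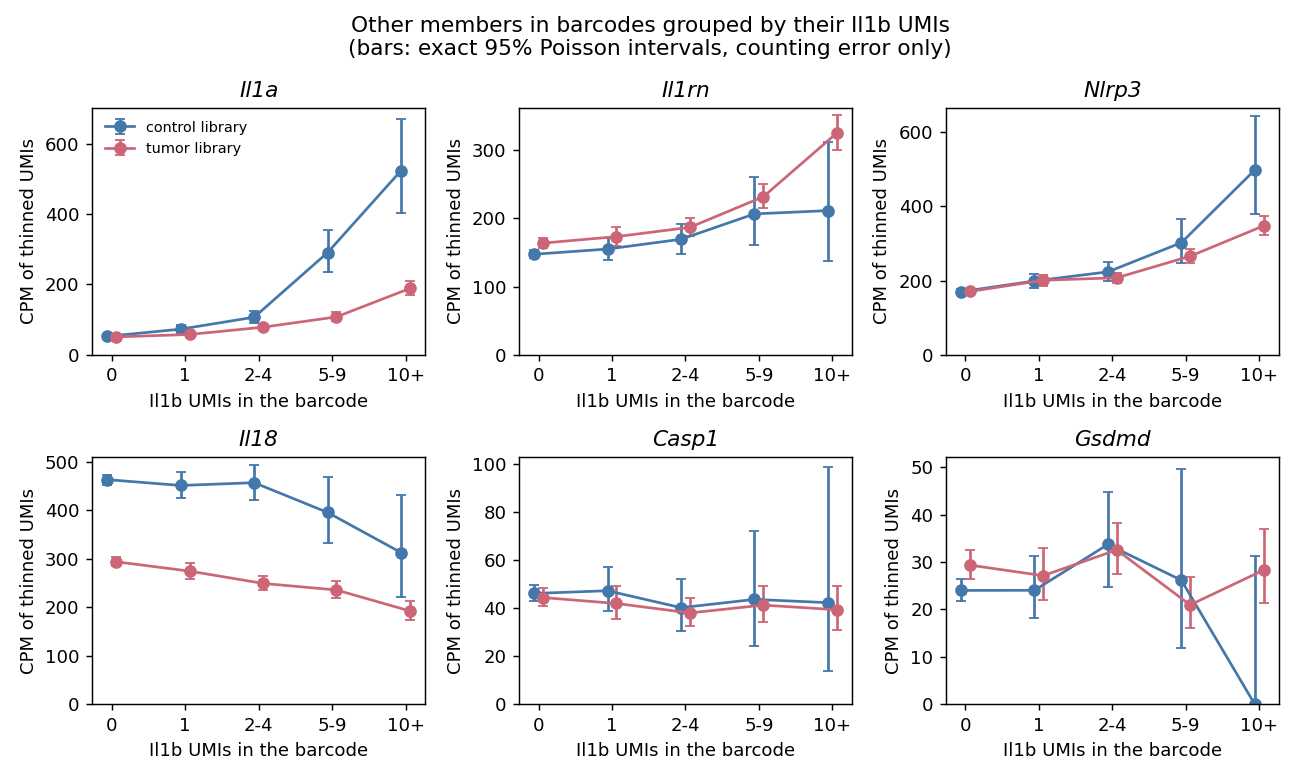
Level of 6 other members (CPM of thinned UMIs, y axes from 0) in barcodes grouped by their Il1b UMIs (x axes), for both libraries, with exact 95% Poisson intervals that cover counting error only. Il1a, Nlrp3 and Il1rn rise from left to right and Il18 falls, while Casp1 stays between 37.96 and 47.2 CPM, and control values at 10 or more Il1b UMIs rest on 32 barcodes.

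Of the 13 AM markers, 7 were lower in carriers in both libraries, against 3.19% of all genes. Car4 alone, 1 of the 13, was higher in both, against 3.48% of all genes. The summed AM list was 1.10-fold higher in control carriers (1.096 to 1.112) and 0.950-fold in tumor carriers (0.945 to 0.955). Chil3, the largest part of that sum, was at 13829 CPM in control carriers and 11023 CPM in the rest. In tumor it was at 10579 and 10914 CPM. Marco, the AM marker that differed most between the libraries, was lower with more Il1b within each of them. It went from 634 CPM in barcodes with no Il1b UMI to 160.5 CPM at 10 or more (96.6 to 250.6) in control, and from 273 to 82.2 CPM (69.9 to 96.2) in tumor. The part of these markers in the result was not tested.

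The 10 genes most like Il1b across barcodes, by the lower of the log2 ratios of carriers over the rest in the 2 libraries, were Cxcl1, Cxcl3, Inhba, Cd14, Cxcl2, Il1a, S100a4, Ptafr, Nfkbiz and Gpr35, out of 7409 genes. Cxcl1, a neutrophil chemokine, was at 64.7 CPM in control carriers and 14.1 in the rest, and at 99.7 and 33.7 CPM in tumor. Inhba, which encodes the subunit of activin A, was at 91.0 and 23.0 CPM in control and at 194.7 and 95.8 CPM in tumor. Cd14, the co-receptor for bacterial lipopolysaccharide, was at 321 and 166 CPM in control and 479 and 248 CPM in tumor. Il1a ranked 6, Nlrp3 56 and Il1rn 295 in this order. The other members ranked from 3589 (Gsdmd) to 6488 (Il18).

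Of 16 NF-κB response genes (Il1b and the other members are not on this list, while Cxcl1, Cxcl2, Cxcl3 and Nfkbiz are), 15 had enough UMIs and 12 of these were higher in carriers in both libraries, against 3.48% of all genes. Their median log2 ratio was 0.41 in control and 0.39 in tumor, against −0.03 and −0.01 over all genes. A further list of 6 genes, each at least 2-fold higher in tumor, held Apoe, S100a6, S100a4, Ifi27l2a, Crip1 and Spp1. All 6 were higher in carriers in both libraries, against 3.48% of all genes. Their median log2 ratios were 0.75 in control and 0.30 in tumor. These 6 genes were chosen with earlier results of these data known. Of 15 measured dissociation response genes, which are induced while tissue is digested, 6 were higher and 1 lower in carriers in both libraries. Over all genes these shares were 3.48% and 3.19%. The summed dissociation list was 1.11-fold higher in control carriers (1.09 to 1.12) and 1.01-fold higher in tumor carriers (1.01 to 1.02). Between the libraries, however, that list summed to 4822 CPM in control and 8114 CPM in tumor, and the NF-κB list to 2670 and 4044 CPM. The 4 heat shock genes, 3 of which are also on the dissociation list, summed to 301 and 675 CPM. In tumor that list was lower in carriers (516 CPM) than in the rest (903 CPM). The part of digestion in the Il1b difference was not tested. Between the libraries 6 of the 16 NF-κB genes and 5 of the 16 dissociation genes were at least 2-fold higher in tumor, against 5.01% of all genes, and 0 of either list at least 2-fold lower. Ptgs2, which encodes the inducible prostaglandin synthase, had 20 and 1147 UMIs, Cxcl1 was at 26.3 and 75.3 CPM, and Tnf was at 87.0 and 79.9 CPM. Ptgs2 and Tnf were named after their values were seen.

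The 4 genes of MHC class II, which presents antigen to T cells, were all higher in carriers in both libraries, against 3.48% of all genes. They summed to 868 against 659 CPM in control and 615 against 383 CPM in tumor. Of the 6 cycling genes, 4 had enough UMIs and all 4 were lower in carriers in both libraries, against 3.19% of all genes. The summed cycling list was at 109 against 190.3 CPM in control and 65.7 against 85.3 CPM in tumor.

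Markers of other cell types differed between the libraries too. The 6 monocyte markers summed to 7.03 CPM in control and 54.2 CPM in tumor, none at or under 3 UMIs, with F13a1 at 25 and 2467 UMIs and Ly6c2 at 10 and 120. The 5 interstitial macrophage markers summed to 13.97 and 52.0 CPM, with Folr2 at 0 and 1 UMIs. The 10 neutrophil markers summed to 114 and 149.9 CPM and did not move together, with S100a8 at 45.2 and 103 CPM and Mmp8 at 43.3 and 26.5 CPM. S100a9 had 324 and 3 UMIs, and 321 of the control ones lay in 1 barcode. The 5 fibroblast markers summed to 0.709 and 31.7 CPM and the 5 epithelial markers to 89.9 and 24.1 CPM. Single tumor barcodes held 453 of the 963 Dcn UMIs, 388 of 822 for Col3a1 and 161 of 380 for Lum. Col1a1 and Col1a2 had 10 and 8 UMIs in tumor. All 5 epithelial markers were lower in tumor, and Epcam made up 53.7 and 4.39 CPM of their sums. In carriers against the rest of the tumor library, the monocyte list was 64.7 against 43.0 CPM, of which F13a1 made up 46.3 and 27.2 CPM. In control it was 8.595 against 7.56 CPM, and the interval of the ratio (0.762 to 1.66) held 1. The interstitial macrophage list was higher in carriers in both libraries, 1.35-fold in control (1.01 to 1.79) and 1.45-fold in tumor (1.29 to 1.62). So was the neutrophil list, 1.26-fold (1.14 to 1.39) and 1.09-fold (1.02 to 1.16). The dendritic cell list was at 8.83 against 4.05 CPM in control, 2.18-fold higher in carriers (1.42 to 3.31). In tumor it was at 5.25 against 4.05 CPM, and the interval of the ratio (0.891 to 1.90) held 1. The part of these markers in the Il1b results was not tested. Barcodes holding at least 3 rarely carried markers of another type were few (18 control and 23 tumor barcodes) and held 11 and 86 Il1b UMIs. Leaving them out could therefore hardly move the Il1b log2 ratio, which was 2.35 without them. F13a1 and Ccr2, each in over 5% of tumor barcodes, were not counted by that rule. F13a1 lay in 1303 tumor barcodes, most of which that rule kept, and its part in the result was not tested.

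Apoe, which encodes a lipid carrier protein, was more frequent in the tumor library and divided barcodes further. At least 2 Apoe UMIs were found in 17.6% of thinned tumor barcodes (1228) and 1.71% of control barcodes (96). Tumor barcodes without Apoe had 611 CPM of Il1b (599.6 to 622), those with 1 Apoe UMI 819.8 (787 to 854) and those with 2 or more 911 (883 to 939), 1.49-fold higher than without (1.44 to 1.55). Control barcodes without Apoe had 130.1 CPM. Among thinned barcodes without Apoe, Il1b was thus 4.70-fold higher in tumor (4.50 to 4.90). Over all kept barcodes, not thinned, it was 5.07-fold higher (4.96 to 5.19), and these intervals did not overlap. Il18 followed Apoe in the opposite direction, at 306 CPM in tumor barcodes without it and 158 in those with 2 or more, against 463 CPM in control barcodes without Apoe. Il1rn and Nlrp3 were at 189 and 206 CPM in tumor barcodes without Apoe and at 188 and 210 CPM in those with 2 or more.

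The wider pathway was read from 54 genes in 5 lists, the members included, of which 43 had at least 50 UMIs. Of these, 4 were at least 2-fold higher in tumor (Il1b, Il36g, Il1r2 and Ninj1) and 2 at least 2-fold lower (Serpinb1a and Gsdme), with 37 between, where 5.01% of all genes were higher and 4.86% lower. Without the members 34 genes remained, of which 2 were higher and 2 lower, a share close to that of all genes. The median log2 ratio of the 43 was 0.14, against −0.06 over all genes. Il36g, Gsdme, Il1rl2, Myd88, Pycard, Aim2, Nlrp1b and Txnip lie outside the rule for named genes and were named after their values were seen. Il36g, an IL-36 ligand, had 50 and 126 UMIs. Gsdme, a gasdermin cleaved by caspase-3, was at 4.56 and 2.15 CPM.

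Among receptors, Il1r1, the signalling IL-1 receptor, was low, at 1.73 CPM in control (112 UMIs) and 2.57 CPM in tumor (177 UMIs), while Il1rap was 11.3 and 6.93 times as frequent in UMIs. Il1rl2, the IL-36 receptor, was at 21.7 and 22.2 CPM. Il18r1 had 12 and 10 UMIs, Sigirr 33 and 43 and Il18rap 34 and 63. Il1rl1, the IL-33 receptor, had 1 UMI in control and 20 in tumor, and Il33 had 11 and 9. Il36a, Il36b, Il36rn and Il1f10 had no UMI, which allows up to 0.0463 CPM in control and 0.0436 CPM in tumor. Ligand-binding receptors of IL-1 and IL-18 were thus all under 3 CPM in these macrophages.

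None of the 11 signalling genes reached 2-fold, as was so for 11056 of the 12267 genes tested. The furthest were Irak3, an inhibitory kinase relative that dampens IL-1 and Toll-like receptor signals, at 18.6 CPM in control and 32.0 CPM in tumor, a log2 ratio of 0.78 (0.68 to 0.89), and Irak2, at 46.3 and 70.1 CPM, which gave a log2 ratio of 0.60 (0.53 to 0.67). In tumor carriers Irak3 was at 38.1 CPM against 27.5 in the rest, and in control at 18.9 against 18.0 CPM with an interval of the ratio that held 1. Myd88, the adaptor of the pathway, was at 62.9 and 53.7 CPM.

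Of the inflammasome sensors and adaptors, 12 of 15 had enough UMIs and all 12 lay within 2-fold, like most genes tested, from −0.39 (Nlrp1b) to 0.38 (Txnip) on the log2 scale. Pycard, which encodes ASC, was at 112 and 136 CPM, and Aim2, a sensor of cytosolic DNA, at 64.1 and 56.1 CPM. Mefv had 1 and 6 UMIs, Nlrp6 6 and 1, and Nlrp12 none. Among proteases and pores, Ninj1, which ruptures the plasma membrane during lytic death, was at 14.0 CPM in control and 47.9 CPM in tumor, 3.42-fold higher, with a log2 ratio of 1.77 (1.67 to 1.88). It was also at 52.6 CPM in tumor carriers against 39.3 in the rest, and in control at 13.6 against 11.8 CPM with an interval of the ratio that held 1. Serpinb1a, an inhibitor of neutrophil serine proteases, was at 143.9 CPM in control and 64.3 CPM in tumor, 2.24-fold lower, with a log2 ratio of −1.16 (−1.21 to −1.11).

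**Figure D5:**
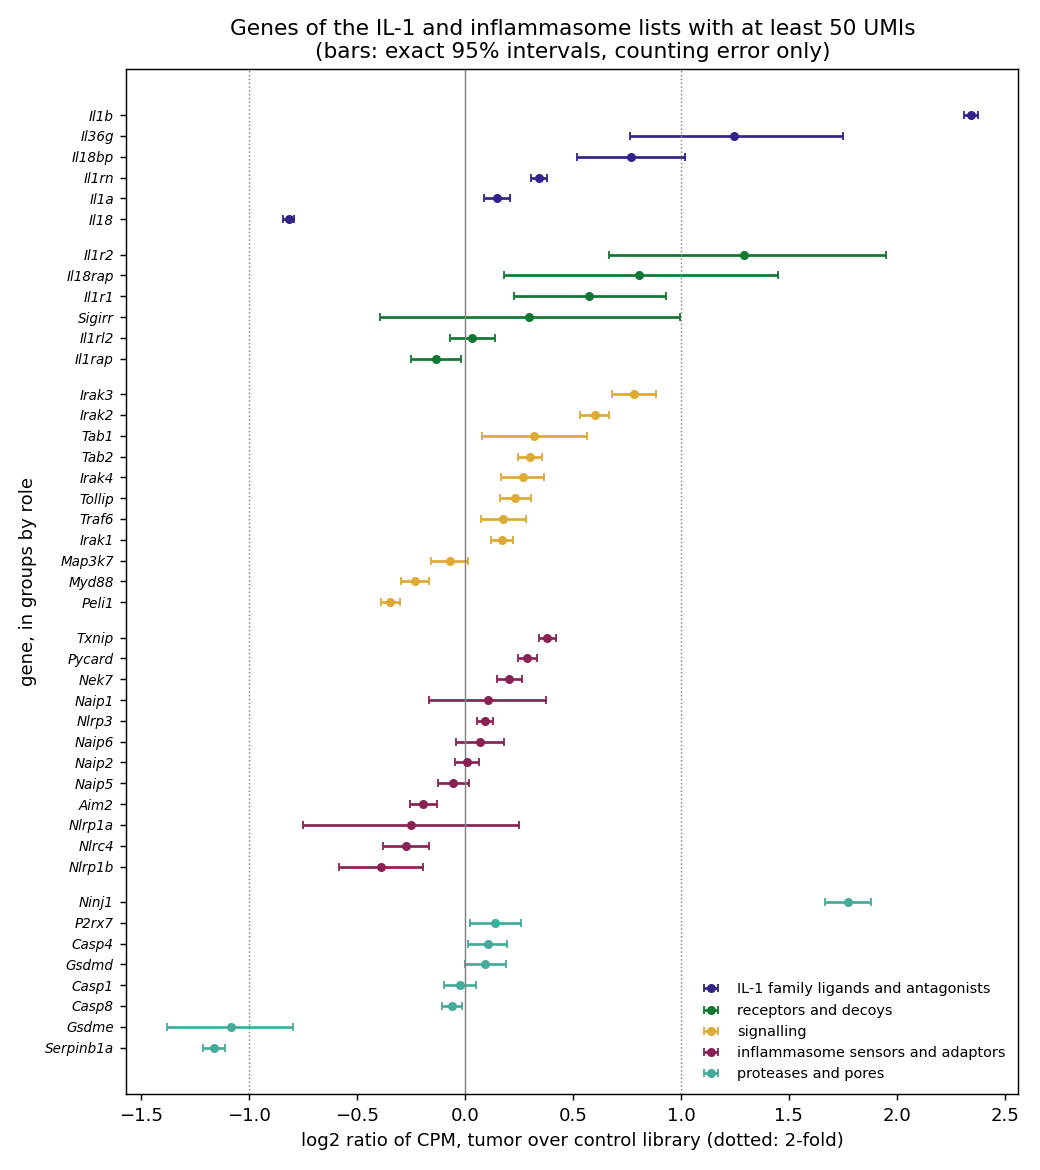
Log2 ratio of CPM, tumor over control (x axis), for the 43 pathway genes with at least 50 UMIs, in 5 groups by role, with exact 95% intervals that cover counting error only and dotted lines at 2-fold. Il1b (2.34) and Ninj1 (1.77) lie furthest to the right and Serpinb1a (−1.16) furthest to the left, and all sensors and signalling genes lie between the dotted lines.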

How the data were processed

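Single-cell RNA was counted in 2 libraries of FACS-sorted AMs, 1 control and 1 tumor. The authors deposited raw UMI counts per gene and barcode, not normalized, from the 10x 3′ kit. The submitters' processing notes name bcl2fastq 2.20, Cell Ranger 4.0.0 and mm10, whereas the study's methods name a later Cell Ranger release, so the release is uncertain. Of 32285 identifiers, 32158 had a symbol in the GENCODE annotation, and 4 IL-36 genes were matched through RefSeq synonyms.

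From the deposited counts, barcodes with at least 500 genes and at most 10% mitochondrial UMIs were kept, UMIs were summed and scaled to CPM, and exact 95% Poisson, binomial or conditional binomial intervals were given. Intervals of differences of shares combine the distances to each share's limits. No p-value was computed. A gene was called by a 2-fold ratio among genes with at least 50 UMIs. For shares, barcodes were thinned without replacement to 3700 UMIs (seed 1). No doublet caller was run and cells were not clustered. Hashtag reads were not used here.

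Named genes are the members, list genes with at least 20 CPM and a 1.5-fold ratio or needed to show a near-absent component, and the 10 genes most like Il1b among those with at least 200 UMIs per library. Genes named outside this rule are listed where they appear, apart from Il18bp and markers of cell types and context lists. Il18bp, at 3.25 CPM in control and 5.54 CPM in tumor, was named for its ratio to Il18. The members and lists were chosen with earlier results of these data known. Scripts were tested on simulated data. Python 3.11.15, numpy 2.4.6, scipy 1.17.1 and pandas 2.3.3 were used.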

Additional observations from a re-analysis of the deposited data

Results flagged for a closer look

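Il1b was also measured in the barcodes that the quality filter left out, which no comparison above uses. These were 2300 control and 1509 tumor barcodes with medians of 1002 and 1067 UMIs. Il1b was at 63.1 CPM in control (54.4 to 72.7) and 416 CPM in tumor (388 to 446), above the level that a count of 0 allows, and in both libraries below the level in the kept barcodes. These barcodes drew attention because a signal was present in data that the comparisons leave aside. Nlrp3 in the same barcodes was at 182.5 CPM in control and 225 CPM in tumor, and Casp1 at 22.0 and 19.1 CPM.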

How the results depend on the processing

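The Il1b log2 ratio of 2.34 kept its direction under all 9 alternatives run for it. It was 2.18 without barcodes with an Apoe UMI, 2.39 as a mean over barcodes, 2.40 after division by the median ratio and 2.62 without the 1% of barcodes with the most Il1b, and from 2.32 to 2.36 under the others. The log2 balance of agonists over antagonist and decoy in control turned from 0.44 to −0.15 with Il1b alone in the numerator, by construction, and in tumor it moved from 1.999 to 1.85 there and to 1.83 without Apoe barcodes. The difference in barcodes with Il1b was 27.8 percentage points at 2000 UMIs, 27.1 when 2 UMIs made a carrier, 27.0 without Apoe barcodes and 26.7 without thinning. The number of members higher in carriers in both libraries was 2 instead of 3 at 2000 UMIs, where Nlrp3 was lost, and at 5000 UMIs, where Il1rn was lost, and 3 under the other alternatives. Pathway genes called higher numbered 2 with at least 200 UMIs required and 8 at 1.5-fold, against 4, where the threshold sets the count. Of 256 values recomputed, 212 moved by less than their counting interval or 1.5 times, 43 moved further and 1 reversed. Within these 256, 8 values of Casp1, Gsdmd or Il1rap changed sign from a main value whose counting interval held 0, and they are not counted as reversed. Removal of barcodes by rarely carried markers was added after seeing the data. For Il1r2, leaving out its top 1% of barcodes gave no value, since all its UMIs lay there. No paired analysis was possible because each condition has 1 library. Depth limits Il1r2 most, with 30 and 78 UMIs. The causes of these shifts were not tested.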
